A study of Mus musculus with 12 samples.

Results

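Mybpc1, Mybpc2, Mybpc3, Mybphl, Ttn, Myom1, Myom2, Myom3 and Capn3, 9 of the 51826 gene entries counted, encode myosin-binding proteins, titin, the M-band proteins and a titin-bound protease of the sarcomere. They were selected by gene symbol with their measured levels by chamber and genotype already in view. Every level, genotype difference, chamber difference and interaction of these 9 genes is therefore given as a description, without a test. The hearts came from CUG960 +dox mice, a model of myotonic dystrophy type 1, and from MHCrtTA +dox controls.

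CUG960 +dox mice (TREDT960I(H)/MHCrtTA(hemi)) were homozygous for a doxycycline-inducible transgene that carries an expanded, interrupted CUG repeat in the last exons of human DMPK, and were hemizygous for the rtTA transactivator. Controls were MHCrtTA(hemi). Both groups shared the FvB strain, female sex, doxycycline chow from postnatal day 1, age of 10 weeks and the rtTA transgene, whose αMHC promoter limits induction to cardiomyocytes. RNA from atria and ventricles of 3 mice per genotype gave 12 libraries of 116127966 to 160676189 counts. The CUG960 mice were V119, V120 and V123 and the controls V327, V333 and V334, each with an atrial and a ventricular library, and the values below are in that order of mice within a group. The human transgene was not analysed here.

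Cardiac and skeletal muscle shorten when myosin thick filaments pull on actin thin filaments within the sarcomere. Myosin-binding protein C sits at regular intervals on the thick filament and regulates how myosin heads reach actin. Its 3 genes are named for the muscle that uses them most: Mybpc3 for heart, Mybpc1 for slow and Mybpc2 for fast skeletal fibers. Mybphl encodes a short relative found in atria and parts of the ventricular conduction system. Titin runs from the Z-disc to the M-band as a molecular spring, and the myomesins crosslink titin and myosin at the M-band, with Myom1 encoding myomesin, Myom2 M-protein and Myom3 a form known from skeletal fibers. Capn3 encodes calpain 3, a muscle protease that binds titin.

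In GRCm38, Mybpc2 lies on chromosome 7 (44501699 to 44524656, minus strand), Mybpc1 on chromosome 10 (88518279 to 88605152, minus strand) and Mybphl on chromosome 3 (108364911 to 108380057, plus strand). Chromosome 2 holds Ttn (76703980 to 76982547, minus strand), Mybpc3 (91118144 to 91136516, plus strand) and Capn3 (120456019 to 120504913, plus strand). Myom1 is on chromosome 17 (71002633 to 71126856), Myom2 on chromosome 8 (15057653 to 15133541) and Myom3 on chromosome 4 (135759715 to 135815564), all on the plus strand. All are annotated as protein coding. Ttn is by far the longest, with 116825 bases of exon against 1276 for Mybphl. The counts are sums over a whole gene, so titin or myomesin isoforms were not separated. Ganc overlaps Capn3 on the same strand and Myl12a overlaps the start of Myom1 on the opposite strand, and how reads in those overlaps were divided is not stated, which leaves the values of Capn3 and Myom1 uncertain to that extent.

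Promoter sequences from RefSeq (GRCm38.p6) were matched for 8 of the 9 genes, Myom2 being the exception, and Capn3 had 2 starts. The 250 bases before the start are shown 5′ to 3′ for 4 genes that the results turn on, the ventricular Mybpc3, the atrial Mybphl, and Mybpc2 and Capn3 (first start), which were lower in CUG960 hearts of both chambers. Capitals mark matches to the MEF2, GATA, MCAT, T-box and CArG motifs on either strand, and the more frequent E-boxes are left in lower case.
Mybpc3 chr2:91117894-91118143, plus strand: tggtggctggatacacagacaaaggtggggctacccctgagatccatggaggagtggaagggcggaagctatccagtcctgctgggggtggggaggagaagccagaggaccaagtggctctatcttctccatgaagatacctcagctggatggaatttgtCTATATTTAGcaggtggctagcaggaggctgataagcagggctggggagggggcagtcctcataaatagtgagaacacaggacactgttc
Capn3 chr2:120463343-120463592, plus strand: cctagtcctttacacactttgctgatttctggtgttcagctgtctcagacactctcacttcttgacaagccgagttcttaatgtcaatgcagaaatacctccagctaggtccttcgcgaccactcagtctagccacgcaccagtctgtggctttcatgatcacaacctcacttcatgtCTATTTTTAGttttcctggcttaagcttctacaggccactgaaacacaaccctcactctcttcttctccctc
Mybphl chr3:108364661-108364910, plus strand: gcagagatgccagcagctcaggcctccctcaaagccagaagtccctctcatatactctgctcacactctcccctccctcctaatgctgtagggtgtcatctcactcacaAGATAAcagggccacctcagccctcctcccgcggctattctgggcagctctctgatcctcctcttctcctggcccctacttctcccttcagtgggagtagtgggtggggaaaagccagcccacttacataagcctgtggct
Mybpc2 chr7:44524670-44524919, minus strand: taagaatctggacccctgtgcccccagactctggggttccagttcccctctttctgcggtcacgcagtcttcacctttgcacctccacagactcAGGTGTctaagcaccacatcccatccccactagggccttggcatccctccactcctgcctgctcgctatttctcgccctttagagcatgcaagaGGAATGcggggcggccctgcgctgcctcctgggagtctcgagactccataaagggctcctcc
In Mybpc3 and Capn3 the capitals are a MEF2 motif, beginning 90 and 72 bases before the start. Ttn also held one, 166 bases before its start, so 3 of the 9 promoters had the motif, against 0.508% of 32851 RefSeq promoters of the same length. The capitals in Mybphl are the GATA motif AGATAA, which was also found in Myom1 and at the second start of Capn3 (9.99% of all promoters). In Mybpc2 they are a T-box half-site (AGGTGT, 11.8% of promoters), which overlaps an E-box, and farther downstream an MCAT motif (CATTCC, read on the opposite strand, 12.6%). Only Myom1 held a CArG motif (1.47%). The E-box CANNTG was in 8 of the 9 promoters and in 66.2% of all promoters. A match describes letters in this window and not a bound site.

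The question put to these genes was how their levels differ between atria and ventricles, and between CUG960 and control hearts within each chamber. Levels are normalized CPM, which are gene counts relative to the library total after scaling by the trimmed mean of M values (TMM) over all 12 libraries. The 9 genes together took 0.595% to 0.967% of the counts of a library. A gene was called when the adjusted P value of edgeR's quasi-likelihood test was under 0.05 over all genes tested and the fold change was at least 1.5. Between genotypes, 5.49% of 17650 genes tested in atria and 4.75% of 16909 in ventricles were called. In atria Mybpc1 fell below the filter on low counts, and 2 of the other 8 genes (Mybpc2 and Capn3, both lower) were past the rule. In ventricles 5 of 9 were past it, with Mybphl, Myom2 and Myom3 higher and Mybpc2 and Capn3 lower. The genotypes did not overlap for 4 of the 8 genes in atria and 5 of 9 in ventricles, where 35.7% and 31.1% of all genes tested did not overlap. The selection of the 9 genes used these contrasts. Being past the rule, here and in the refits below, therefore describes them and is not a test. Nothing is read from their counts.

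**Figure D1:**
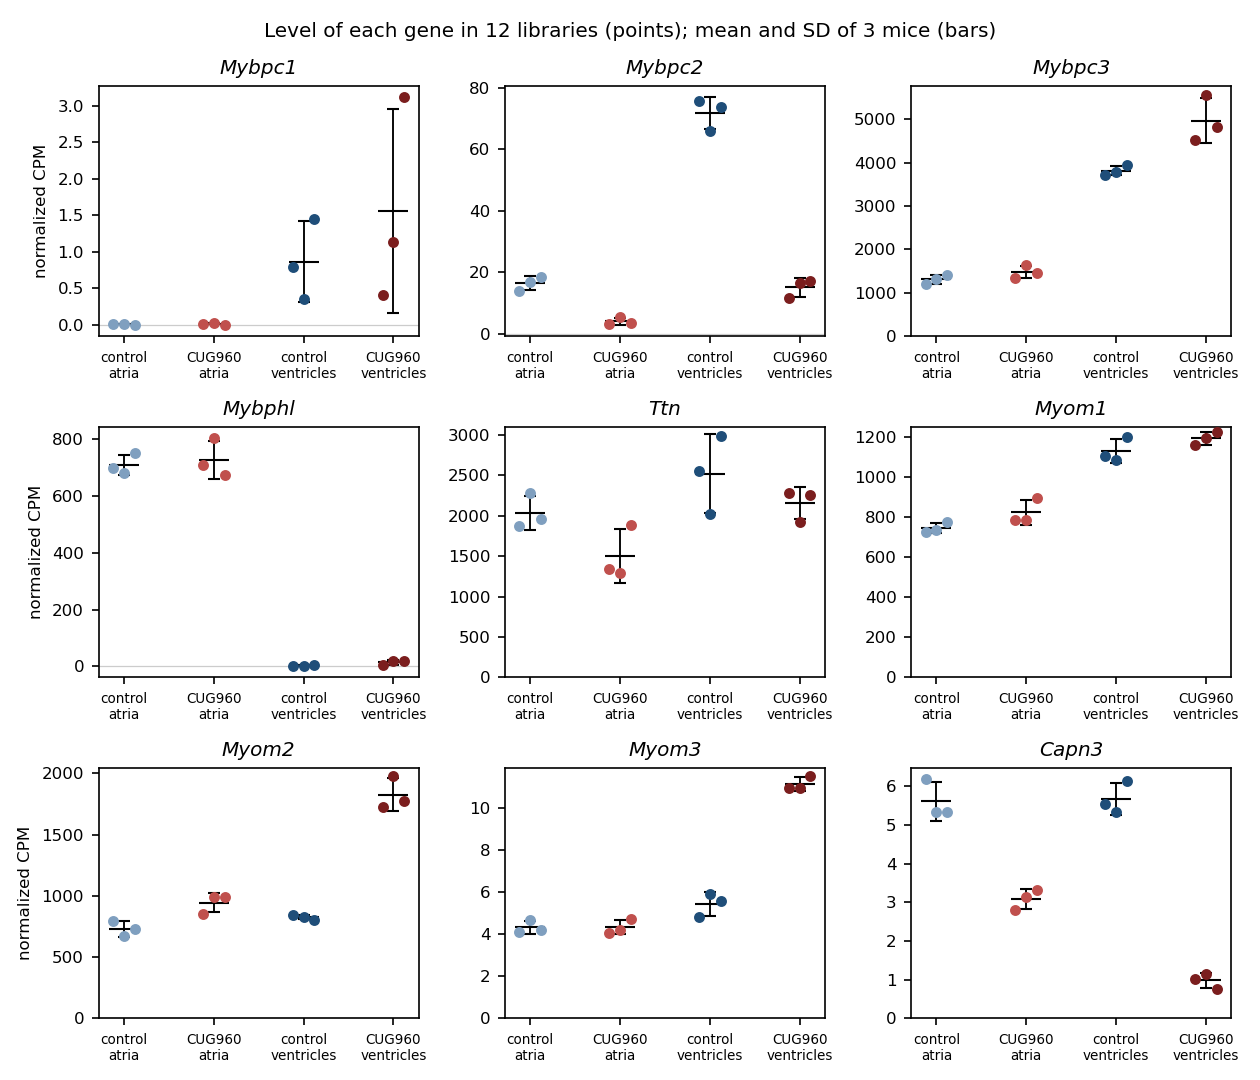
Normalized CPM of the 9 genes in each of the 12 libraries (points), with the mean and SD of the 3 mice of a group (bars), on a linear axis of its own for each gene. Ventricular Mybpc2 and Capn3 are lower, and ventricular Myom2 and Myom3 higher, in all CUG960 mice than in all controls.

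The labels of the chambers held against markers. The 8 atrial cardiomyocyte markers, led by Nppa, summed to between 22984 and 30259 CPM in atria and between 143 and 386 CPM in ventricles. In atria the sum was 30259, 29514 and 27455 CPM in controls and 24080, 25087 and 22984 CPM in CUG960 mice, without overlap. Of these 8 genes, 4 had a positive and 4 a negative log2 difference between genotypes in atria. Gja5, a gap junction gene, was called lower in CUG960 atria (-1.51 ± 0.12, edgeR adjusted P = 0.000309). Nppa was at -0.42 ± 0.07 there, under the fold limit. The 5 ventricular markers, led by Myl2, summed to between 84.6 and 177 CPM in atria and between 14784 and 18531 CPM in ventricles. Bulk tissue was sequenced, so fewer cells of a type and less RNA per cell cannot be told apart in any value here. Depth moved with genotype as well, since CUG960 libraries had fewer counts than controls in atria and more in ventricles, and the mitochondrial share in ventricles was 19.6% to 20.5% in controls and 15.3% to 18.4% in CUG960 mice. The part of these differences in the results was not tested.

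Per kilobase of exon, Mybpc3 stood highest of the 9 genes in ventricles and Mybphl in atria. In control ventricles the order was Mybpc3 (917 ± 27.3 CPM per kilobase, SD, n = 3), Myom1 (108 ± 5.95), Myom2 (93.2 ± 2.01), Ttn (21.6 ± 4.17), Mybpc2 (19.9 ± 1.43), Mybphl (2.47 ± 1.13), Capn3 (1.13 ± 0.0839), Myom3 (0.903 ± 0.0926) and Mybpc1 (0.191 ± 0.123). Ttn and Mybpc2 overlapped there and cannot be ordered, whereas the other neighbors did not overlap per kilobase of exon. With the longest transcript or the coding length, Mybphl and Capn3 overlapped as well. In CUG960 ventricles Mybpc3 stayed first (1193 ± 126 CPM per kilobase), Myom2 (206 ± 15.1) stood above Myom1 (114 ± 3.07), and Capn3 was last (0.195 ± 0.0379), though its range overlapped that of Mybpc1 (0.344 ± 0.309). The values of Mybphl (11.1 ± 6.61) and Mybpc2 (4.19 ± 0.842) also overlapped in that group.

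In control atria the order per kilobase was Mybphl (556 ± 27.5 CPM per kilobase, SD, n = 3), Mybpc3 (315 ± 25.0), Myom2 (82.5 ± 7.15), Myom1 (71.4 ± 2.41), Ttn (17.4 ± 1.83), Mybpc2 (4.57 ± 0.611), Capn3 (1.12 ± 0.101), Myom3 (0.717 ± 0.0495) and Mybpc1 (0.00139 ± 0.00145). No neighbors overlapped per kilobase of exon, but Myom2 and Myom1 did with the longest transcript or the coding length. The order in CUG960 atria was the same except that Myom3 (0.721 ± 0.0572) stood above Capn3 (0.614 ± 0.0508). No neighbors overlapped there per kilobase of exon. Myom3 and Capn3 changed places when the longest transcript or the coding length was used. With the coding length, Capn3 (1.25 ± 0.104) also stood above Mybpc2 (1.20 ± 0.333). The ranges of Capn3 and Mybpc2 overlapped with either of these lengths. A level per kilobase takes coverage as even along a transcript, which was not tested and matters most for Ttn.

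**Figure D2:**
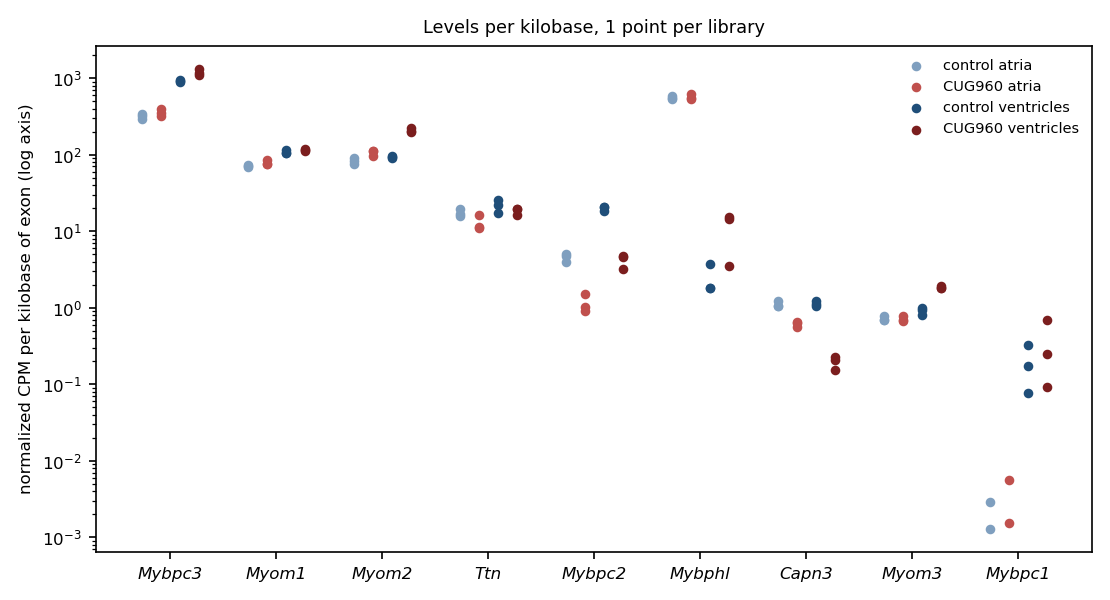
Normalized CPM per kilobase of exon (log axis) of the 9 genes, ordered by their mean in control ventricles, with 1 point per library and a color per group. Mybphl is at 528 or more in atria and at 15.3 or less in ventricles, and Mybpc1 in atria has no point for the 2 libraries at 0 counts.

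Among the myosin-binding protein C genes, cardiac Mybpc3 was the abundant one and differed little between genotypes. It stood at 1206, 1314 and 1414 CPM in control atria and 1343, 1631 and 1462 CPM in CUG960 atria. These groups overlapped, with a log2 difference of 0.17 ± 0.09 (SE). In ventricles its level was 3723, 3788 and 3944 CPM in controls and 4528, 5548 and 4824 CPM in CUG960 mice. All CUG960 ventricles were higher, by 0.38 ± 0.10 on the log2 scale, which is under the fold limit.

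Mybpc2, the fast skeletal gene, was lower in CUG960 hearts of both chambers. In ventricles it was at 75.6, 65.9 and 73.7 CPM in controls and 11.6, 16.6 and 17.2 CPM in CUG960 mice, a log2 difference of -2.24 ± 0.14. In atria it was at 14.1, 17.0 and 18.4 CPM in controls and 3.27, 5.39 and 3.65 CPM in CUG960 mice, a log2 difference of -2.01 ± 0.19. The genotypes were far apart in both chambers. Relative to Mybpc3, both per kilobase, it was at 0.0217 ± 0.00168 in control and 0.00350 ± 0.000574 in CUG960 ventricles, and at 0.0145 ± 0.000868 and 0.00316 ± 0.000561 in atria (SD, n = 3).

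Markers of skeletal muscle were read beside Mybpc2, because tissue of that type carries it. The 11 markers summed to 803, 644 and 858 CPM in control and 197, 511 and 434 CPM in CUG960 ventricles. Nearly all of that sum was Acta1, skeletal actin, which heart muscle also transcribes, so that sum moved with Mybpc2 through Acta1 alone. The other 10 genes summed to 1.60, 1.615 and 1.33 CPM in control and 1.89, 1.83 and 1.66 CPM in CUG960 ventricles, which was higher in all CUG960 mice. That difference was mainly Pvalb, while Tnnt3 (log2 difference -1.09 ± 0.43) and Tnni2 (-0.98 ± 0.36), though not called, were below the controls in every CUG960 ventricle, as Mybpc2 was. Of the 7 skeletal markers tested in ventricles, 3 had a positive and 4 a negative log2 difference. The adult skeletal myosins Myh1, Myh2 and Myh4 were at or below 0.109 CPM in all 12 libraries. In atria the marker sum was 16.5, 5.78 and 10.0 CPM in controls and 4.99, 4.84 and 7.92 CPM in CUG960 mice, with overlap, but without Acta1 it was 4.83, 4.11 and 4.04 CPM against 3.23, 3.18 and 2.49 CPM, with none. The fast skeletal troponin genes Tnnt3 (log2 difference -2.05 ± 0.37, edgeR adjusted P = 0.00999) and Tnni2 (-1.34 ± 0.32, edgeR adjusted P = 0.0270) were called lower in CUG960 atria, all at levels under 1 CPM, and Tnni2 kept that call in only 1 of the 6 fits without a mouse. Pvalb, parvalbumin, was called higher in CUG960 ventricles, at 0.00904, 0.0380 and 0 CPM in controls and 0.425, 0.196 and 0.176 CPM in CUG960 mice (edgeR adjusted P = 0.0122), but not without V327. The part of skeletal muscle in the Mybpc2 values was not tested further.

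Mybpc1, the slow skeletal gene, was near the limit of detection in atria, with 2, 1 and 0 counts in controls and 1, 4 and 0 counts in CUG960 mice. In ventricles it had 87, 37 and 163 counts in controls and 60, 157 and 390 counts in CUG960 mice, which is 0.786, 0.351 and 1.45 CPM against 0.412, 1.14 and 3.12 CPM. The genotypes overlapped, and the log2 difference of 0.84 ± 0.67 became -0.16 without V123. The related Mybph, which encodes myosin-binding protein H, had at most 22 counts in any library.

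Mybphl marked the atria in both genotypes. Its atrial level was 698, 682 and 749 CPM in controls and 708, 802 and 673 CPM in CUG960 mice, a log2 difference of 0.04 ± 0.08 with overlapping groups. In ventricles it was at 2.33, 2.30 and 4.82 CPM in controls and 4.44, 19.6 and 18.5 CPM in CUG960 mice. V120 and V123 were well above the controls, whereas V119 lay within their range. The log2 difference of 2.17 ± 0.50 passed the rule over all 6 libraries and no longer did so without V120, V123, V327 or V333.

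Other atrial transcripts did not follow Mybphl evenly across the ventricles. Myl7, the atrial regulatory light chain, was at 8.02, 4.98 and 19.3 CPM in controls and 0.192, 0.304 and 55.9 CPM in CUG960 mice. Sln, sarcolipin, was at 2.90, 2.99 and 7.84 CPM in controls and 0.213, 0.341 and 18.5 CPM in CUG960 mice. In V120, Mybphl was thus high where Myl7 and Sln were near 0, and in V123 these 3 transcripts were all above the controls. Of the 8 atrial markers, 5 had a positive and 3 a negative log2 difference between genotypes in ventricles. Dkk3 was at 9.41, 4.62 and 13.4 CPM in controls and 4.44, 5.91 and 17.3 CPM in CUG960 mice, so V120 lay within the controls. Gja5, at 5.51, 5.62 and 6.88 CPM against 5.75, 4.01 and 3.05 CPM, was below every control in V120 and V123. Kcnj3 overlapped between genotypes. Bmp10, an atrial growth factor gene on the same marker list, was at 2.43, 2.39 and 3.75 CPM in control ventricles and 0.0343, 0.275 and 0.208 CPM in CUG960 ventricles, below every control in V123 as well (log2 difference -4.06 ± 0.50, edgeR adjusted P = 0.00161). The ratio of Mybphl to Myl7 CPM was 0.250 ± 0.0154 in control atria, 0.334 ± 0.113 in control ventricles and 0.331 in the V123 ventricle, and it was 23.1 in the V119 ventricle and 64.2 in the V120 ventricle. V119 thus had a high ratio with Mybphl itself within the range of the controls. Nppa, the atrial natriuretic peptide gene, was at 48.6, 54.4 and 84.8 CPM in control ventricles and 86.6, 224 and 151 CPM in CUG960 ventricles, with V120 highest. The part of atrial tissue in the ventricular libraries was otherwise not tested.

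**Figure D3:**
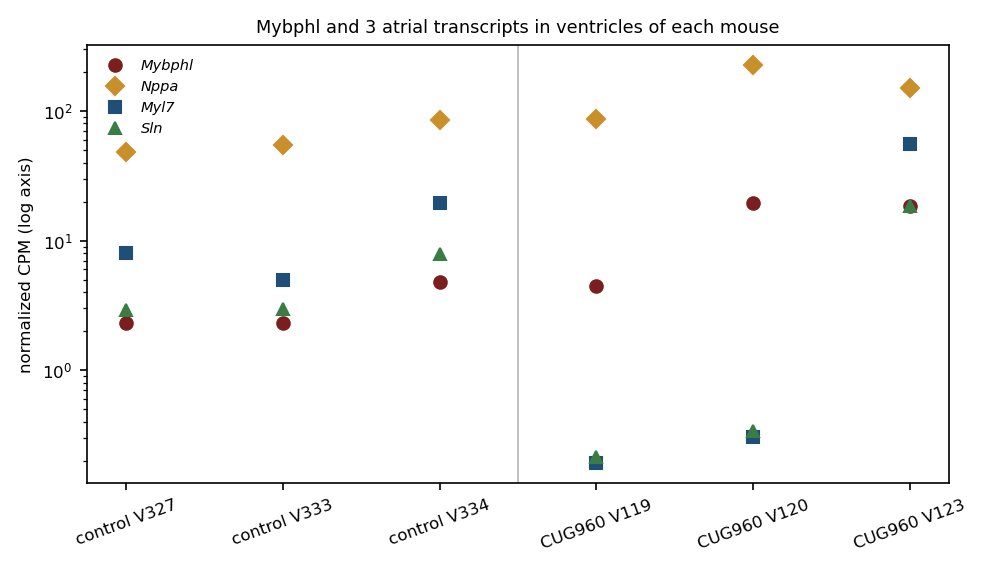
Normalized CPM (log axis) of Mybphl, Nppa, Myl7 and Sln in the ventricular library of each of the 6 mice, 1 point per gene and mouse. In V120, Mybphl is at 19.6 CPM with Myl7 at 0.304 and Sln at 0.341 CPM, whereas in V123 all of these are above every control.

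Ttn, titin, was past the rule in neither chamber. In atria it was at 1871, 2278 and 1962 CPM in controls and 1338, 1290 and 1887 CPM in CUG960 mice, a log2 difference of -0.44 ± 0.15. V119 and V120 were below all controls, and V123 overlapped them. Without V123, the mouse that overlapped, the difference was -0.64, which is a description and not a test. In ventricles the levels of 2555, 2019 and 2991 CPM in controls and 2289, 1925 and 2263 CPM in CUG960 mice overlapped, with a log2 difference of -0.22 ± 0.14.

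Capn3, the titin-bound protease, stood at like levels in both chambers of controls and was lower in CUG960 hearts, more so in ventricles. In atria it was at 6.20, 5.33 and 5.33 CPM in controls and 2.81, 3.14 and 3.31 CPM in CUG960 mice, a log2 difference of -0.86 ± 0.12. In ventricles it was at 5.54, 5.33 and 6.14 CPM in controls and 1.03, 1.14 and 0.768 CPM in CUG960 mice, a log2 difference of -2.53 ± 0.17. The groups did not overlap in either chamber, and the lowest library still held 96 counts. Per kilobase, Capn3 relative to Ttn was 0.0532 ± 0.00723 in control and 0.0107 ± 0.00293 in CUG960 ventricles, and 0.0649 ± 0.0114 and 0.0487 ± 0.00790 in atria, where this ratio overlapped between genotypes (SD, n = 3). The overlapping gene Ganc was at 17.5 ± 1.42 CPM in control and 14.6 ± 1.13 CPM in CUG960 ventricles.

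At the M-band, Myom1 was past the rule between genotypes in neither chamber. Myomesin transcripts were at 727, 738 and 775 CPM in control atria and 786, 788 and 898 CPM in CUG960 atria, a log2 difference of 0.14 ± 0.07 without overlap. In ventricles they were at 1104, 1086 and 1202 CPM in controls and 1160, 1196 and 1224 CPM in CUG960 mice, a log2 difference of 0.08 ± 0.08 with overlap.

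Myom2 and Myom3 were higher in CUG960 ventricles. Myom2 was at 841, 829 and 806 CPM in control ventricles and 1726, 1978 and 1778 CPM in CUG960 ventricles, a log2 difference of 1.15 ± 0.09. Myom3 was at 4.83, 5.93 and 5.59 CPM in controls and 10.95, 10.96 and 11.55 CPM in CUG960 mice, a log2 difference of 1.03 ± 0.11. Neither gene had overlapping groups in that chamber. In atria the difference was smaller for Myom2, at 796, 669 and 726 CPM in controls against 852, 987 and 994 CPM in CUG960 mice (log2 difference 0.37 ± 0.09, under the fold limit). Atrial Myom3 overlapped, at 4.11, 4.67 and 4.21 CPM in controls and 4.09, 4.23 and 4.74 CPM in CUG960 mice, with a log2 difference of 0.01 ± 0.11.

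The balance of M-protein to myomesin transcripts differed between genotypes in ventricles. Myom2 per kilobase was 0.865 ± 0.0627 of Myom1 in control ventricles and 1.81 ± 0.127 in CUG960 ventricles (SD, n = 3). The same ratio in atria was 1.16 ± 0.119 in controls and 1.36 ± 0.107 in CUG960 mice, and here the groups overlapped.

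**Figure D4:**
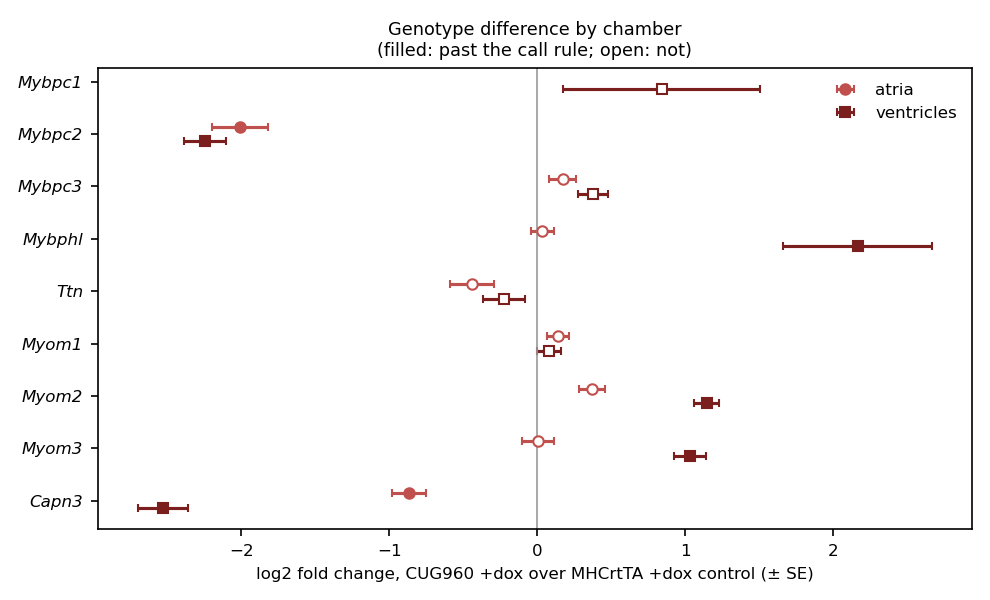
Log2 fold change of CUG960 +dox over MHCrtTA +dox control for the 9 genes (horizontal axis, with SE), in atria (circles) and ventricles (squares), filled where the gene was past the rule of adjusted P and fold change. Myom2 and Myom3 lie near or above 1 in ventricles and below 0.4 in atria, and Capn3 lies at -2.53 in ventricles and -0.86 in atria.

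The chamber difference of these genes was compared within each genotype. Of all genes tested, 34.9% were called between atria and ventricles in controls and 33.6% in CUG960 mice. In controls 5 of the 9 genes were past the rule, with Mybphl higher in atria (log2 difference of atria minus ventricles 7.81) and Mybpc1, Mybpc2 (-2.12), Mybpc3 (-1.55) and Myom1 (-0.60) lower. In CUG960 mice 7 of 9 were past it: Mybphl (5.67) and Capn3 (1.64) were higher in atria, and Mybpc1, Mybpc2 (-1.89), Mybpc3 (-1.76), Myom2 (-0.97) and Myom3 (-1.37) were lower. Of these, Myom2 (-0.18), Myom3 (-0.34) and Capn3 (-0.02) had the smallest chamber differences among controls, together with Ttn (-0.31). No fold is given for Mybpc1, which had 0 to 4 counts in atria.

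Whether the genotype difference itself differed between chambers was asked in a fit over all 12 libraries. Of 18327 genes, 1.38% had an adjusted P value under 0.05 for this interaction. Myom2, Myom3 and Capn3 were the 3 of the 9 genes among them, Myom2 no longer without V327. The 9 genes were selected with these values in view, so this describes them and is not a test. The genotype effect in atria minus that in ventricles was -0.78 ± 0.12 for Myom2, -1.03 ± 0.14 for Myom3 and 1.67 ± 0.20 for Capn3 on the log2 scale. For Mybpc2 it was 0.24 ± 0.25, and for Mybphl, with its spread among ventricles, -2.13 ± 0.58.

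Across the 12 libraries, the log2 CPM of Myom2 and Myom3 had a Pearson correlation of 0.912, Myom2 and Capn3 of -0.949, and Mybpc3 and Myom1 of 0.972. These are descriptions, since the libraries share chamber, genotype and mouse. Among 13112 genes whose mean reached 1 CPM, those most like Capn3 were Wrnip1 (r = 0.982), Mtr (0.976) and Smim14 (0.967), and those most like Mybpc2 were Ubl4a (0.984), Dpp9 (0.980) and Rnpep (0.978). For Myom2 they were Tmem201 (0.967), St5 (0.964) and Fbxo22 (0.962), and for Myom3 Secisbp2 (0.960), 1110002E22Rik (0.959) and Eda2r (0.959). Mybphl was most like Tgfb3, Nppa and Gpx3 (each 0.993), Mybpc3 like Gnb3 (0.995), Arl2bp and Asb2 (each 0.994), Myom1 like Prep (0.991), Homer2 (0.987) and Osbp (0.986), and Ttn like Med1 (0.958), Mrs2 (0.952) and Jmjd4 (0.946). Spearman's rho gave other genes, with only Tmem201 for Myom2 in both sets, so the identity of the nearest genes rests on the measure.

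Genes that work with these proteins were tested singly and are counted by list. The lists were chosen with earlier results of these data known. Over all genes tested, 5.49% were called between genotypes in atria and 4.75% in ventricles. Of 11 genes of the thick filament and its assembly, 0 of 11 tested were called between genotypes in atria and 0 of 10 in ventricles, with a median log2 difference of -0.13 and 0.17 against -0.01 for all genes tested in each chamber. Without the fold limit, Myh6, the main adult cardiac myosin heavy chain, had an adjusted P value of 0.0393 in atria (edgeR, log2 difference 0.22, higher in 3 of 3 mice). Smyd1, a methyltransferase needed to assemble thick filaments, had one of 0.0378 (0.25, higher in 3 of 3 mice). Of the 11 genes of the calpain system, 0 of 10 tested were called in either chamber, with medians of -0.03 and 0.06. Calpain 1 (Capn1) had the lowest edgeR adjusted P value of this list in atria, 0.0201, but a log2 difference of only -0.25. DESeq2 also called 0 genes of both lists in both chambers, and an unadjusted P value under 0.05 was reached by 4 and 3 thick filament genes in atria and ventricles and by 5 and 2 calpain system genes.

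Of 21 titin and M-band partners, 5 of 21 tested were called in atria (1 higher, 4 lower) and 4 of 20 in ventricles (2 higher, 2 lower). The share called over all genes tested was 5.49% in atria and 4.75% in ventricles. The medians of the list were -0.14 and 0.07, against -0.01 for all genes tested in each chamber. Ankrd23, a titin-binding ankyrin repeat protein, was lower in both chambers. It was at 75.1, 98.04 and 142 CPM in control and 23.0, 42.3 and 21.0 CPM in CUG960 atria (log2 difference -1.87 ± 0.31, adjusted P = 0.00679 by edgeR), and at 731, 540 and 605 CPM in control and 271, 424 and 338 CPM in CUG960 ventricles (-0.86 ± 0.16, adjusted P = 0.0122). The ventricular call was lost when all 12 libraries were fitted together (adjusted P = 0.0553). Its relatives Ankrd1 and Ankrd2 rose in ventricles. Ankrd1 was at 1330, 990 and 1105 CPM in control and 2276, 2643 and 2712 CPM in CUG960 ventricles (1.16 ± 0.12, edgeR adjusted P = 0.000689). Ankrd2, at 0.223 to 0.389 CPM in controls and 0.556 to 1.25 CPM in CUG960 mice, was called (1.71 ± 0.36, edgeR adjusted P = 0.0189), but not without V120, V123, V333 or V334. Atrial values of both overlapped between genotypes.

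Cmya5, myospryn, a large protein of striated muscle, fell in both chambers. Its level was 771, 709 and 760 CPM in control and 386, 423 and 503 CPM in CUG960 atria (-0.77 ± 0.10, edgeR adjusted P = 0.00242) and 651, 541 and 763 CPM in control and 441, 388 and 415 CPM in CUG960 ventricles (-0.65 ± 0.12, edgeR adjusted P = 0.0115). The ventricular call was lost without V120 or V334. Fhl1, a LIM protein that binds titin, fell in atria from 276, 175 and 285 CPM to 119.2, 137.2 and 140.7 CPM (-0.89 ± 0.17, edgeR adjusted P = 0.0127) and lost that call without V119. The small heat shock protein gene Hspb1 was also lower in atria (-0.84 ± 0.23, edgeR adjusted P = 0.0465), a call that held in only 1 of the 6 fits that left out a mouse.

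Fhl2, a LIM protein that binds the N2B region of titin, rose in atria, from 72.5, 67.5 and 73.2 CPM in controls to 152, 142 and 159 CPM in CUG960 mice (1.09 ± 0.07, edgeR adjusted P = 7.62e-05). In ventricles it was at 1147, 1139 and 968 CPM in controls and 1100, 1246 and 1265 CPM in CUG960 mice, and the groups overlapped. The interaction was 0.94 ± 0.12 (edgeR adjusted P = 0.00226). Fhl2 is also on the list of ventricular markers. The other 4 of that list summed to 56.5, 17.1 and 22.8 CPM in control and 18.28, 21.16 and 17.95 CPM in CUG960 atria. Myl2 and Myl3 made up most of that sum. Hey2, also among these 4, was called lower in CUG960 atria (-0.67 ± 0.19, edgeR adjusted P = 0.0494). That call was lost in 5 of the 6 fits without a mouse and under RLE size factors. The part of ventricular tissue in the atrial Fhl2 values was not tested.

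Of 14 Z-disc anchors of titin and thin filaments, 2 were called in atria and 1 in ventricles, all lower. The share called over all genes tested was 5.49% in atria and 4.75% in ventricles. The medians of the list were -0.30 and -0.10, against -0.01 for all genes tested in each chamber. Xirp2, an actin-binding repeat protein, fell in atria from 466, 447 and 450 CPM to 198, 239 and 250 CPM (-0.99 ± 0.09, edgeR adjusted P = 0.000516), and its relative Xirp1 did so by a call (-1.05 ± 0.28, edgeR adjusted P = 0.0408) that held in 1 of the 6 fits without a mouse. Myot, myotilin, an actin-binding Z-disc protein, fell in ventricles from 33.4, 30.1 and 36.2 CPM to 15.6, 18.8 and 22.5 CPM (-0.80 ± 0.13, edgeR adjusted P = 0.00683).

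**Figure D5:**
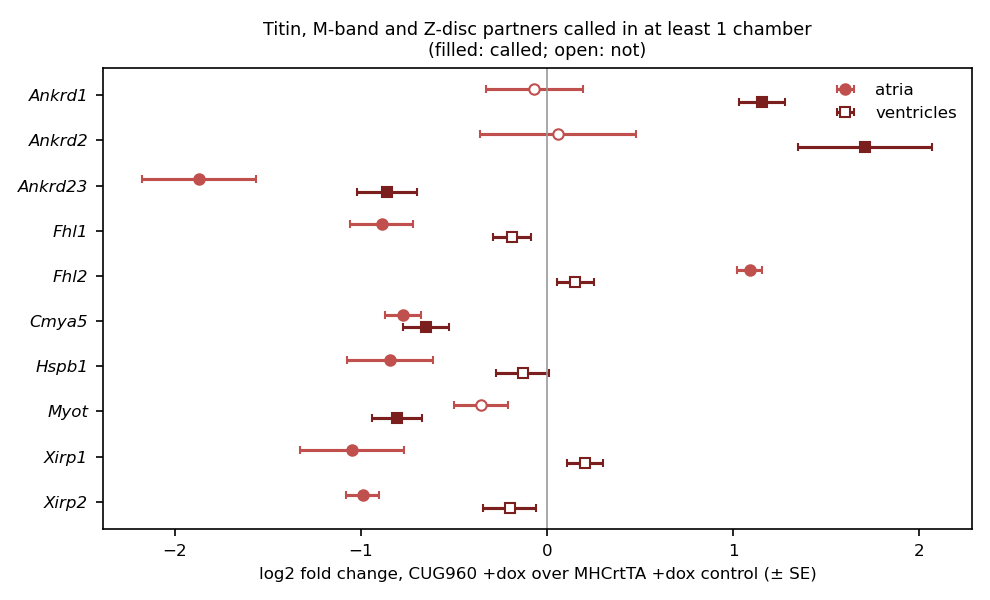
Log2 fold change of CUG960 +dox over MHCrtTA +dox control (horizontal axis, with SE) for the 10 titin, M-band and Z-disc partners called in at least 1 chamber, in atria (circles) and ventricles (squares), filled where called. Ankrd23 and Cmya5 are lower in both chambers, and Fhl2 is called higher in atria only, with a tested interaction.

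Markers of the cell types were summed in the same libraries. The 6 endothelial markers, led by Pecam1, summed to 663, 682 and 565 CPM in control and 444, 497 and 462 CPM in CUG960 atria, and to 911, 736 and 876 CPM against 633, 598 and 664 CPM in ventricles, without overlap in either chamber. Pecam1 was called lower in CUG960 atria (log2 difference -0.71 ± 0.10, edgeR adjusted P = 0.00431) and was under the fold limit in ventricles (-0.53 ± 0.07). The 7 fibroblast markers, led by Dcn, summed to 2172, 2505 and 2545 CPM against 2076, 2174 and 1839 CPM in atria and overlapped in both chambers. In atria 0 of them were called. All 7 had a negative log2 difference there (median -0.29, against -0.01 for all genes tested). The genotypes did not overlap for 4 of the 7, where 35.7% of all 17650 genes tested did not overlap. In ventricles 4 were positive and 3 negative. The 6 markers of cardiomyocytes, led by Myh6, summed to 35165 to 36580 CPM in control and 38182 to 40303 CPM in CUG960 atria, and to 41926 to 45087 CPM against 44581 to 46750 CPM in ventricles, where they overlapped. The higher atrial sum was mainly Myh6, and 4 of the 6 genes had a negative log2 difference in atria. Ryr2, the cardiac ryanodine receptor, was at -0.53 ± 0.13 in atria, under the fold limit, and was called lower in ventricles (-0.67 ± 0.13, edgeR adjusted P = 0.0148), but not without V120, V327 or V334. The 4 smooth muscle markers, led by Acta2, and the 6 leukocyte markers, led by Lyz2, had sums that overlapped between genotypes in both chambers. Within the smooth muscle list, Tagln was called higher in CUG960 atria (log2 difference 1.21 ± 0.31, edgeR adjusted P = 0.0364) and lower in CUG960 ventricles (-0.63 ± 0.17, adjusted P = 0.0426), and Myh11 was called lower in ventricles (-0.65 ± 0.17, adjusted P = 0.0393). The Tagln calls were each lost in 4 of the 6 fits without a mouse and the Myh11 call in 5. Both ventricular calls were also lost when all 12 libraries were fitted together, and the Tagln interaction was 1.85 ± 0.40 (adjusted P = 0.0445), lost in 4 of the 6 fits without a mouse. The part of these cell types in the differences above was not tested.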

How the data were processed

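RNA-Seq was performed on poly(A)-selected, stranded libraries of atria and ventricles. According to the submitters' processing notes, the authors estimated counts with RSEM 1.3.1 on mm10 (GRCm38). The authors deposited a table of expected counts of 51826 gene entries, all whole numbers, unscaled and unfiltered, and 0 other per-sample columns were present. How RSEM was told of strand is not given in the sources used here.

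Counts were analyzed with edgeR 4.0.16 in R 4.3.3 (filterByExpr, TMM, glmQLFit and glmQLFTest, Benjamini-Hochberg adjustment over all genes tested). Genotypes were compared within chambers, chambers within genotypes, and the interaction over 12 libraries at an adjusted P value under 0.05. The SE of a log2 difference was worked back from the test, as its absolute value divided by the square root of the quasi-likelihood F statistic. Log2 CPM used a prior count of 2. Exon lengths came from GENCODE M21 (GRCm38). Positions of motifs were found in Python 3.11.15.

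Depth ranged from 116127966 to 160676189 counts. Counting error was not separated from the spread between the 3 mice of a group. It weighs most on genes with few counts, such as Mybpc1 in atria and Pvalb in control ventricles. P values measure the spread between these mice, whose litters the labels do not give. The genes and lists were chosen with earlier results of these data known. Besides the 9 genes, those named are list genes called in a genotype comparison or the interaction, the 3 genes most correlated with each gene of at least 1 CPM, and markers beside results. The choice of Myh6, Smyd1, Capn1, Ky and Mybph came after seeing their values.

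The labels give the same mouse number to an atrial and a ventricular library, which come from 1 animal, so the mouse pairs chambers. Residuals of such pairs correlated at r of 0.0522 to 0.303 (6 pairs), against -0.282 to 0.122 for other mice of the genotype (12 pairs). The main chamber and interaction fits left the mouse out and took the 2 libraries of a mouse as independent. With the mouse as a block, 334 genes were called for the interaction against 253, and 214 were in both sets. Alternatives were DESeq2 1.42.0, other size factors, filters and fold limits, a mouse block, and fits without each mouse in turn. The fitting was tested on simulated data.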

Additional observations from a re-analysis of the deposited data

Results flagged for a closer look

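The results here stood out because the genotype effect, CUG960 minus control on the log2 scale, was of different size in atria and ventricles. For the genes selected with these levels known, the values are descriptions. The effect in atria minus that in ventricles was -0.78 for Myom2, -1.03 for Myom3 and 1.67 for Capn3, so Myom2 and Myom3 were raised more, and Capn3 lowered more, in ventricles. Leaving out each of the 6 mice in turn, it ranged from -0.85 to -0.72 for Myom2, from -1.07 to -0.98 for Myom3 and from 1.47 to 1.78 for Capn3.

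Fhl2, a titin-binding LIM protein tested over all genes, had a difference of 0.94 (edgeR adjusted P = 0.00226), from a rise in atria that was higher in 3 of 3 mice. Ky, a muscle gene of the titin and M-band partner list, lay on opposite sides of the controls, at 1.52, 1.003 and 1.13 CPM in CUG960 atria against 1.73, 1.55 and 2.16 CPM, and at 26.8, 18.4 and 17.4 CPM in CUG960 ventricles against 15.8, 15.9 and 13.9 CPM. Its difference of -1.03 missed the threshold (edgeR adjusted P = 0.0922), as did its effect in either chamber.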

How the results depend on the processing

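No fold limit gave 2573 called genes in atria and 1680 in ventricles between genotypes, and 9726 and 9517 between chambers in control and CUG960 mice. A log2 limit of 1.5 gave 216, 199, 2233 and 2200, with 1 of the selected genes in atria (Mybpc2) and 3 in ventricles (Mybpc2, Mybphl and Capn3). For the interaction, DESeq2 called 660 genes against 253, and leaving out a mouse gave 74 to 131. DESeq2 called Mybphl as well as Myom2, Myom3 and Capn3 there. The other counts of genes and of selected genes stayed within 1.5 times their value, among them all those with the mouse as a block (6113 and 5899 genes between chambers). No genotype comparison allows such a replicate block, since each mouse has 1 genotype. Upper quartile scaling took Myom1 out of the chamber calls in controls, as did leaving out V334, and a minimum of 10 counts in every library took out Mybpc1. Without V123, Ttn and Myom1 joined the chamber calls in CUG960 mice (9 of 9 genes). For single genes, 2066 refitted values kept their side of the rule, 174 lost a call and 11 gained one. No setting reversed a called direction among the genes named. Each CPM level moved by less than 1 SD under other size factors. Ranks per kilobase changed only in CUG960 atria, among Mybpc2, Myom3 and Capn3.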
